A study of Mus musculus with 5 samples.

Results

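Genes of MHC class I antigen presentation were compared between Krt6a+ and WAP+ cells of precancerous mammary lesions. They were chosen by symbol, as the 10 genes H2-K1, H2-D1, B2m, Tap1, Tap2, Tapbp, Psmb8, Psmb9, Psmb10 and Nlrc5 of 24347 symbols in the deposited tables, with the values of transcripts of the same symbol summed. Every one of the 10 was listed, and 9 passed a filter on low values (all but Nlrc5). There were 2 Krt6a+ libraries, numbered 2 and 3, labelled as keratin 6a positive precancerous stem cells, and 3 WAP+ libraries, numbered 1 to 3, which the labels describe by their whey acidic protein (WAP). Both populations carried the MMTV-Wnt-1 transgene, which drives Wnt-1 in the mammary epithelium from a viral long terminal repeat, and both came from mice of mixed FVB, SJL and C57BL/6 background, whose age is not given in the labels. Small pools of cells were sorted by antibody staining for TVA, the receptor of an avian retrovirus. How TVA came to mark each population, and whether libraries of 1 population came from separate mice, is not said in the labels. The p-values below therefore measure the spread between these libraries, which may be technical.

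MHC class I molecules carry peptides of cytosolic proteins to the cell surface, where CD8 T cells inspect them. The proteasome cuts the proteins, and in its inducible form, the immunoproteasome, the catalytic subunits Psmb8, Psmb9 and Psmb10 take the places of the constitutive subunits Psmb5, Psmb6 and Psmb7. Tap1 and Tap2 form the transporter that moves peptides into the endoplasmic reticulum, tapasin (Tapbp) holds the empty heavy chain beside the transporter, and the heavy chains H2-K1 and H2-D1 leave for the surface bound to the light chain beta-2-microglobulin (B2m). Interferons raise nearly all of these genes, in part through Irf1, and Nlrc5 is the transactivator of class I promoters. Epithelial cells express the pathway at a basal level without interferon.

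FPKM scales the fragments of a transcript to its length and to the mapped fragments of the library. Levels of different genes can be set side by side only as far as each estimate holds. Between 8112 and 8900 genes reached 1 FPKM in a library. The naming genes followed the labels: Krt6a had 1380 and 1133 FPKM in Krt6a+ libraries, against 168, 50.0 and 120 FPKM in WAP+ libraries, and Wap was at 0 in both Krt6a+ libraries, against 50.1, 126 and 13.9 FPKM in WAP+ libraries. An exact 0 or a low value can be a failed estimate, because Eno1 and Rpl10 were listed at 0 in all 5 libraries. Gapdh was at most 1.66 FPKM in any library. Leukocytes express class I genes strongly, and 17 of 23 leukocyte markers were listed at 0 in every library, among them Ptprc, Cd3e, Itgam, Lyz2 and Laptm5, which for the same reason does not show that leukocytes were absent. The tested markers were Cd68 and Tyrobp. Cd68 had 6.49 and 17.8 FPKM in Krt6a+ libraries, against 9.08, 26.4 and 19.5 FPKM in WAP+ libraries. Tyrobp, a signalling adaptor, had 0.897 and 0.819 FPKM in Krt6a+ libraries, against 2.68, 2.04 and 0.841 FPKM in WAP+ libraries. The summed scaled level of that list, most of it Cd68, a lysosomal protein, was 7.54 to 19.7 in Krt6a+ libraries and 11.4 to 32.0 in WAP+ libraries. Endothelial markers, with 8 genes, summed to 14.4 and 16.1 in the Krt6a+ libraries and to between 2.52 and 235 in the WAP+ libraries, with the highest value in WAP+ library 1, where the endothelial genes Esam and Cldn5 had 112 and 124 FPKM. Egfl7, another endothelial gene, had 17.9 FPKM there. Flt1, a VEGF receptor of the same list, ran the other way, with 14.0 and 10.6 FPKM in Krt6a+ libraries, against 5.69, 1.99 and 2.03 FPKM in WAP+ libraries (limma, log2 1.66 ± 0.64 SE, adjusted p = 0.234), and made up most of the Krt6a+ sums. In bulk pools, fewer cells of a type and less RNA per cell cannot be told apart.

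None of the 9 tested genes passed the threshold between the populations. Psmb8, Psmb10 and H2-K1 stood at lower levels in both Krt6a+ libraries than in any WAP+ library. Counting either direction, groups without overlap were about as common among all tested genes. The test was limma on log2(scaled FPKM + 1), with Benjamini-Hochberg adjustment over 9682 genes and a threshold of 0.05. By that rule 0 of 9 genes were called, against 0.692% of all tested genes, 0.258% higher and 0.434% lower in Krt6a+ libraries, and at an unadjusted p under 0.05 there were 2, Psmb8 and Psmb10, against 17.1% of all genes. Groups did not overlap for 3 of the 9 genes, Psmb8, Psmb10 and H2-K1, all with lower levels in Krt6a+ libraries, and the same held for 34.8% of all tested genes in either direction and for 17.4% in that direction. The median log2 difference, Krt6a+ minus WAP+, was -0.19 over the 9 genes, with 4 positive and 5 negative, and -0.01 over all tested genes. With scaling to the summed FPKM these medians were 0.19 and 0.27. The count of 0 also held in each of 15 alternative analyses.

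**Figure D1:**
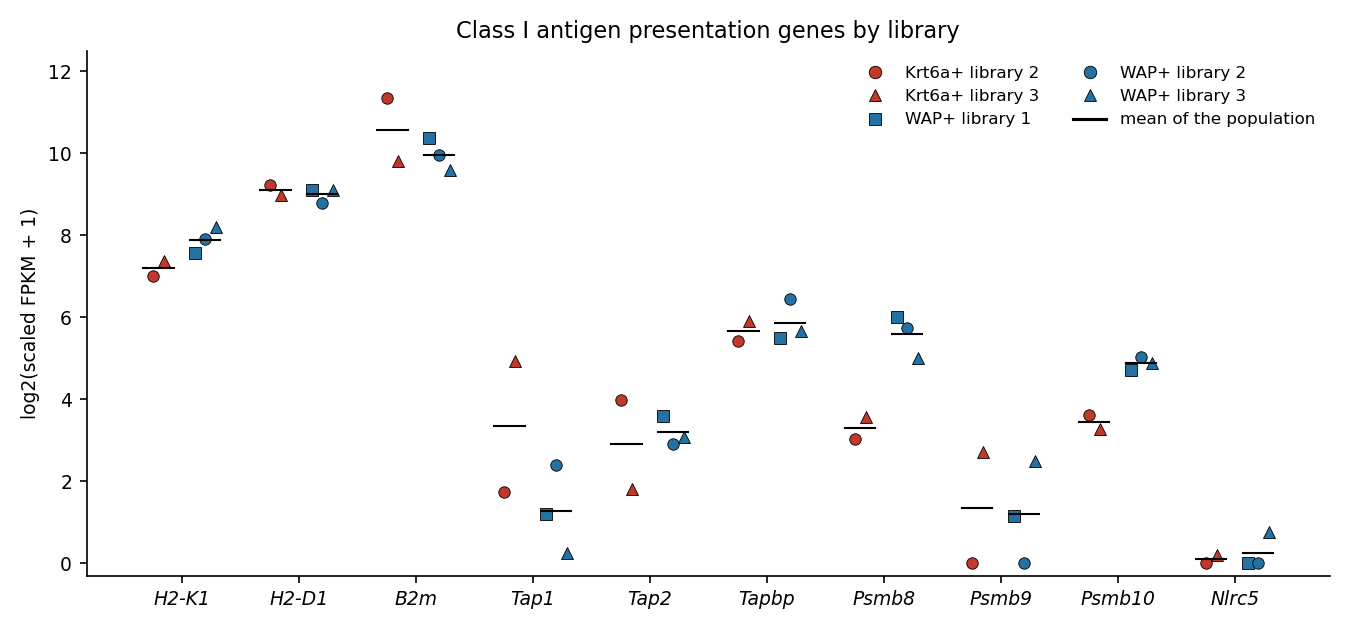
Level of each of the 10 genes in each library, as log2(scaled FPKM + 1) on the vertical axis, with Krt6a+ libraries in red to the left of WAP+ libraries in blue and a bar for the mean of each population. Psmb8 and Psmb10 separate the populations, H2-K1 does so narrowly, and Tap1, Tap2 and Psmb9 vary more within a population than between them.

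**Figure D2:**
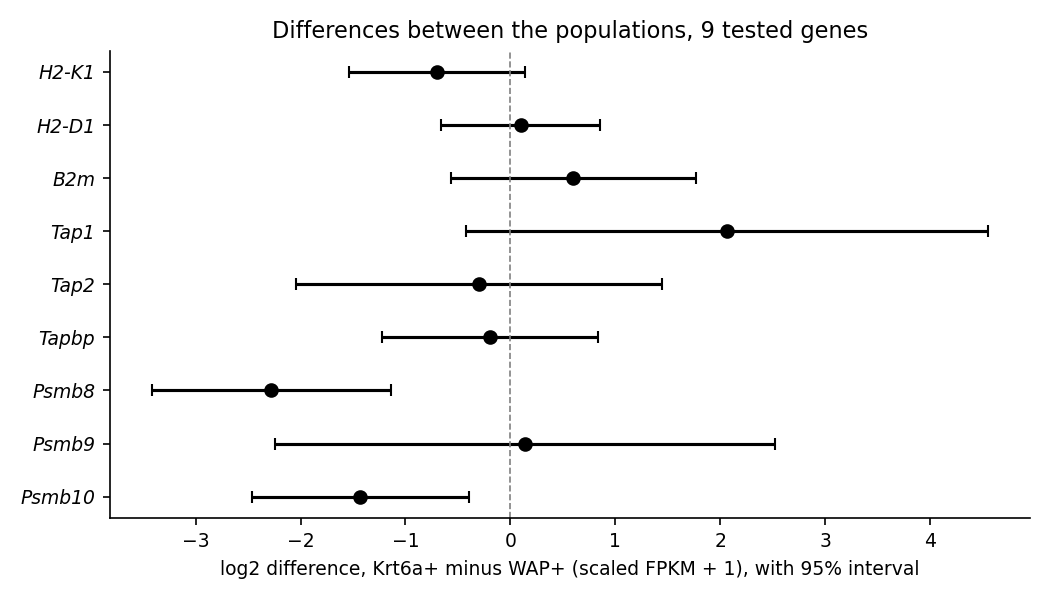
Log2 difference between the populations, Krt6a+ minus WAP+, for the 9 tested genes, as points with 95% intervals from limma. The intervals of Psmb8 and Psmb10 lie below 0 before any adjustment for the number of genes tested, and the other 7 intervals include 0.

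The order of levels was set by the structural chains. Mean scaled FPKM was highest for B2m, then H2-D1, H2-K1 and Tapbp, in both populations. Below these the order differed, since in WAP+ libraries Psmb8 and Psmb10 came next, at 49.0 ± 16.7 and 28.5 ± 3.38 (SD, n = 3), while in Krt6a+ libraries Psmb10, Psmb8 and Tap2 lay close together, at 9.97 ± 1.80, 9.06 ± 2.59 and 8.72 ± 8.81 (SD, n = 2), closer than their spread. Tap1 came between Tapbp and this group in Krt6a+ libraries only by its mean, 16.1 ± 19.4 (SD, n = 2).

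B2m, the light chain shared by all class I molecules, was among the abundant transcripts. It had 2536 and 1005 FPKM in Krt6a+ libraries, against 1507, 898 and 671 FPKM in WAP+ libraries. Krt6a+ library 2 was the highest of the 5, Krt6a+ library 3 lay within the WAP+ range, and the groups overlapped. After scaling it averaged 1739 ± 1200 in Krt6a+ libraries (SD, n = 2) and 1026 ± 279 in WAP+ libraries (SD, n = 3). The log2 difference of 0.60 ± 0.50 (SE) did not pass (limma, adjusted p = 0.591). Without Krt6a+ library 2 it was -0.16, so the direction rested on that library. The B2m transcript NM_009735 spans chr2:122147687-122153082 in mm10.

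H2-D1, one of the classical heavy chains, differed little in relation to its spread. It had 590 and 566 FPKM in Krt6a+ libraries, against 626, 404 and 483 FPKM in WAP+ libraries. The groups overlapped, and after scaling, to 602 and 502 in Krt6a+ libraries against 549, 445 and 553 in WAP+ libraries, Krt6a+ library 2 was the highest of the 5. The log2 difference was 0.10 ± 0.33 (SE; limma, adjusted p = 0.918), with a 95% interval of -0.66 to 0.86. H2-K1, the other classical heavy chain, had 126 and 187 FPKM in Krt6a+ libraries, against 215, 218 and 257 FPKM in WAP+ libraries. Its groups did not overlap, although the nearest values, 187 and 215, lay close, and the log2 difference of -0.70 ± 0.36 (SE) did not pass (limma, adjusted p = 0.375). These values depended on the scaling: with quantile normalization the log2 difference was 0.61 for H2-D1, -0.36 for H2-K1 and 1.18 for B2m. The share of H2-K1 relative to H2-D1, a ratio taken after the values were seen and free of the scaling between libraries, was 0.213 and 0.330 in Krt6a+ libraries, against 0.344, 0.540 and 0.532 in WAP+ libraries. The groups did not overlap, and the nearest values, in Krt6a+ library 3 and WAP+ library 1, differed by little. Both genes are highly polymorphic, the strains of the background carry different H2 haplotypes, and the transcript models describe the C57BL/6 alleles. Heavy chain genes also share long stretches, so how their reads were divided is uncertain.

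The summed H2-K1 and H2-D1 levels relative to B2m were 0.282 and 0.749 in Krt6a+ libraries, against 0.558, 0.693 and 1.10 in WAP+ libraries. The lowest ratio was in Krt6a+ library 2, the library with the most B2m, and the groups overlapped. The difference of the mean ratios was -0.269, -0.0362 without Krt6a+ library 2, -0.503 without Krt6a+ library 3 and -0.110 without WAP+ library 3. An exact permutation test of 2 against 3 libraries cannot go below p = 0.1, so no test was run on any ratio.

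The promoters of these chains, which are induced together by interferon and NF-kB in many tissues, are shown because the same factors were measured here. Windows of 250 bases before to 50 after the annotated start were taken from RefSeq on GRCm38.p6, the assembly named mm10 by the browsers, and 8 of the 10 genes had one (all but Tap2 and Nlrc5). Capitals mark matches, on either strand, to the core of the interferon-stimulated response element (GAAA in 2 copies, with 2 bases of any kind between them), the STAT dimer element TTCNNNGAA, the kappaB consensus and the CCAAT box (CCAAT). For H2-K1, on the minus strand, the window is chr17:34000284-34000583, for H2-D1, on the plus strand, chr17:35262844-35263143, and for B2m, on the plus strand, chr2:122147437-122147736.
H2-K1: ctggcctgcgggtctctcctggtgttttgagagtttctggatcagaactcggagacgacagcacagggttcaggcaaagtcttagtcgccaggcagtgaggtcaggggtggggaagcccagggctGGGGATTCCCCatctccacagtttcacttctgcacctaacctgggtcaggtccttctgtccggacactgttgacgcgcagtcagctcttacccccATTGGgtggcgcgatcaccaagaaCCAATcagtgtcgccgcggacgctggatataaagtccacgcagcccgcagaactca
H2-D1: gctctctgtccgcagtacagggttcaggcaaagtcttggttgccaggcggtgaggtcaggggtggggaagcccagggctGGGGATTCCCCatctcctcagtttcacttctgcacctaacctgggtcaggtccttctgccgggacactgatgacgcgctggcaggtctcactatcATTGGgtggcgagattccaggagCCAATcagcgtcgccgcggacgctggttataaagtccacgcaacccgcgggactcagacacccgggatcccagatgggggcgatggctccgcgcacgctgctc
B2m: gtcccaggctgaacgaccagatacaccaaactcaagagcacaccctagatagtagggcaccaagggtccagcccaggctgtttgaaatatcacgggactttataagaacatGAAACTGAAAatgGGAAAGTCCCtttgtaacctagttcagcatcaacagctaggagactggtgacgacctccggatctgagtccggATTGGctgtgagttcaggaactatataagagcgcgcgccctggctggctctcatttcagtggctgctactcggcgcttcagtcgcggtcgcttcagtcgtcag

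The H2-K1 and H2-D1 windows hold the same 11 letters, in which 2 kappaB matches overlap, beginning 125 and 171 bases before their starts, and each has 2 CCAAT matches. The B2m window holds 1 interferon element core, 139 bases before the start, 1 kappaB match, 126 bases before it, and 1 CCAAT match. Of all 32817 promoter windows in the table, 3.43% hold the interferon element core, 8.46% the kappaB consensus, 8.29% the STAT element and 37.4% the CCAAT box. A match is a description of letters and not of a bound site. Only these fixed patterns were searched, so a window without a match is not shown to lack an element of that kind.

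The peptide transporter and tapasin had groups that overlapped. Tap1, the transporter's first subunit, had 2.32 and 33.6 FPKM in Krt6a+ libraries, against 1.47, 3.85 and 0.173 FPKM in WAP+ libraries. The single high value was Krt6a+ library 3, and the other 4 libraries lay under 4 FPKM. The log2 difference was 2.07 ± 1.08 (SE; limma, adjusted p = 0.376), 3.67 without Krt6a+ library 2 and 0.47 without Krt6a+ library 3. Tap2, its partner, had 14.7 and 2.81 FPKM in Krt6a+ libraries, against 12.6, 5.96 and 6.52 FPKM in WAP+ libraries. The Krt6a+ libraries held both the highest and the lowest of the 5 values, in the order opposite to that of Tap1, and the log2 difference was -0.30 ± 0.75 (SE; limma, adjusted p = 0.890). Tapbp had 41.1 and 67.2 FPKM in Krt6a+ libraries, against 50.2, 78.1 and 43.5 FPKM in WAP+ libraries, and groups that overlapped (log2 difference -0.19 ± 0.45 SE, adjusted p = 0.876 by limma). The 95% interval ran from -1.23 to 0.84.

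Both Tapbp and Tap1 had 2 transcript models in the tables, and the libraries differed in which model was given the fragments. The Tapbp models differ within coding sequence by 3 bases, the first of exon 7 in the longer model, NM_001025313, at chr17:33926627-33926629 on the plus strand. The sequences around that junction, from GENCODE M21 transcripts matched to the RefSeq models, are shown with the 3 bases in capitals.
Tapbp NM_001025313: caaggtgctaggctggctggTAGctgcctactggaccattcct
Tapbp NM_009318: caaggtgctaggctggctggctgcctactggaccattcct

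The longer Tapbp model held the whole FPKM of both Krt6a+ libraries, 41.1 and 67.2, and of WAP+ library 2, 78.1. The shorter model held that of WAP+ libraries 1 and 3, 50.2 and 43.5, and the other model of each library was listed at 0. The tables give no read counts at the junction, so whether the cells of a library used a single splice site was not tested.

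The Tap1 models differ by 84 coding bases, 28 codons, which NM_013683 retains in exon 6 at chr17:34192858-34192941 on the plus strand and NM_001161730 lacks.
Tap1 NM_013683: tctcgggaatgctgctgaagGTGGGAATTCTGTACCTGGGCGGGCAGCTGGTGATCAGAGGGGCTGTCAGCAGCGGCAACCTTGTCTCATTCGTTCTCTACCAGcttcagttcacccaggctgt
Tap1 NM_001161730: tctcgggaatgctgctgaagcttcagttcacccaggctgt

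In capitals are the bases that the shorter model lacks. NM_013683 had 26.7 FPKM, with deposited 95% bounds of 23.4 and 30.1, in Krt6a+ library 3 and was listed at 0 in the other 4 libraries, where its upper bounds ran from 0.120 to 0.168. NM_001161730 had 2.32 and 6.92 FPKM in Krt6a+ libraries, against 1.47, 3.85 and 0.173 FPKM in WAP+ libraries. Krt6a+ library 3 was thus the highest for each model, and its excess over the other libraries lay mostly in the longer one.

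**Figure D3:**
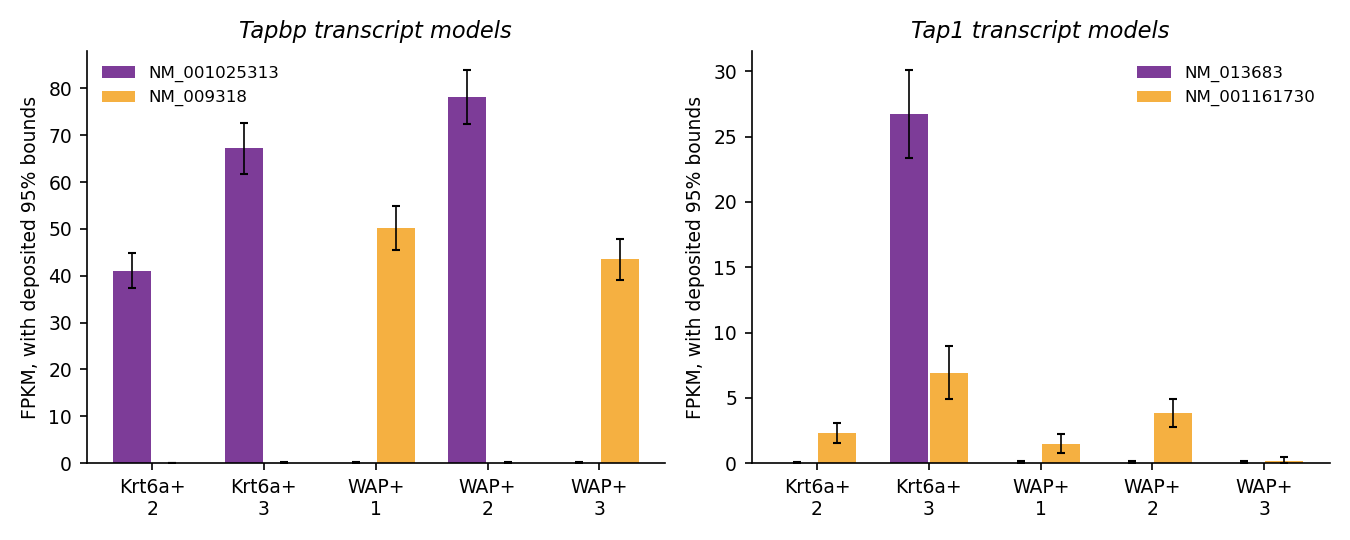
FPKM of the 2 transcript models of Tapbp (left) and Tap1 (right) in each library, as bars with the deposited 95% bounds. Each library has its Tapbp FPKM on a single model, and the longer Tap1 model, NM_013683, is above 0 in Krt6a+ library 3 only.

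Psmb8, the immunoproteasome subunit that replaces Psmb5, had the largest difference in relation to its error. It had 7.08 and 12.3 FPKM in Krt6a+ libraries, against 72.7, 47.5 and 27.0 FPKM in WAP+ libraries. Both Krt6a+ values lay below all WAP+ values. After scaling it averaged 9.06 ± 2.59 in Krt6a+ libraries (SD, n = 2) and 49.0 ± 16.7 in WAP+ libraries (SD, n = 3). The log2 difference was -2.28 ± 0.49 (SE), a level 4.85-fold lower in Krt6a+ libraries on the log2(FPKM + 1) scale, with a 95% interval of -3.42 to -1.14. Adjusted over the 9682 genes it missed the threshold (limma, adjusted p = 0.0791). Leaving out 1 library at a time gave log2 differences of -2.60 to -2.01, and over all 15 alternatives the adjusted p ran from 0.0571 to 0.250. WAP+ library 1, with the most endothelial marker signal, also had the most Psmb8. Without that library the log2 difference was -2.07 (limma, adjusted p = 0.2). Whether endothelial cells had a part in the Psmb8 difference was not tested. The Psmb8 transcript NM_010724 spans chr17:34198195-34201454.

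Psmb10, which replaces Psmb7, had 11.0 and 9.81 FPKM in Krt6a+ libraries, against 28.7, 29.0 and 24.8 FPKM in WAP+ libraries. The values were close within each population and the groups did not overlap. After scaling it averaged 9.97 ± 1.80 in Krt6a+ libraries (SD, n = 2) and 28.5 ± 3.38 in WAP+ libraries (SD, n = 3). The log2 difference of -1.43 ± 0.45 (SE), a level 2.70-fold lower in Krt6a+ libraries, did not pass (limma, adjusted p = 0.164). Its transcript NM_013640 lies at chr8:105935728-105938392. Psmb9, which replaces Psmb6, was near the limit of measurement. It was listed at 0 and at 6.24 FPKM in Krt6a+ libraries, against 1.38, 0 and 4.07 FPKM in WAP+ libraries. The interval widths, read as counting error, correspond to about 20 fragments at the highest of these values, and the log2 difference was 0.14 ± 1.03 (SE; limma, adjusted p = 0.971).

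In the constitutive core of the proteasome nearly all differences were negative, without any gene that passed. Of 19 tested genes of the core particle and its assembly factors, 18 had negative differences and 1 positive (Psmg3). The median log2 difference was -0.66, 0 passed by limma, and 6 had an unadjusted p under 0.05, against 17.1% of all tested genes. Groups did not overlap for 12 genes with lower levels in Krt6a+ libraries and for 1 with higher levels, against 17.4% of all genes each way. Pomp, an assembly chaperone of the core, had a log2 difference of -1.16 ± 0.39 (SE), the structural subunits Psma1 and Psmb2 -1.31 ± 0.45 and -0.94 ± 0.33 (SE), with adjusted p of 0.189, 0.190 and 0.199 (limma). The constitutive catalytic subunits Psmb5, Psmb6 and Psmb7 had -0.69, -0.46 and -0.71. Directions of the 19 core genes were not counted under other scalings. Scaling to the summed FPKM raised the median of all tested genes by 0.28. Of 5 proteasome activators 0 passed by limma, and 1, Psme1, had an unadjusted p under 0.05. Psme1, a subunit of the interferon-inducible activator, had 71.4 and 89.0 FPKM in Krt6a+ libraries, against 174, 214 and 121 FPKM in WAP+ libraries (limma, log2 -1.16 ± 0.38 SE, adjusted p = 0.178), while Psme2, its partner subunit, had 0.06 ± 0.48 (SE). The other activators Psme4 and Psme3 had -0.43 ± 0.70 and -0.29 ± 0.56 (SE).

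Relative to the subunit it replaces, Psmb8 was lower in both Krt6a+ libraries than in any WAP+ library. The ratio of Psmb8 to Psmb5 within a library was 0.0360 and 0.0472 in Krt6a+ libraries, against 0.142, 0.155 and 0.111 in WAP+ libraries. The groups did not overlap, and the means, 0.0416 ± 0.00786 in Krt6a+ (SD, n = 2) against 0.136 ± 0.0222 in WAP+ libraries (SD, n = 3), were 3.27-fold apart. Taken singly, 34.8% of all tested genes also had groups without overlap, in either direction. The numerator is the Psmb8 level given above, so the ratio is not separate evidence. For Psmb10 to Psmb7 the ratio was 0.222 and 0.0651 in Krt6a+ libraries, against 0.182, 0.300 and 0.170 in WAP+ libraries. Here the groups overlapped, because Psmb7 was low in Krt6a+ library 2, at 49.7 FPKM against 151 FPKM in Krt6a+ library 3. Psmb9 to Psmb6 was 0 and 0.0220 in Krt6a+ libraries, against 0.00320, 0 and 0.0125 in WAP+ libraries, again overlapping. All 3 inducible subunits summed over all 3 constitutive ones, a ratio added after the values were seen, gave 0.0323 and 0.0408 in Krt6a+ libraries, against 0.0933, 0.0973 and 0.0783 in WAP+ libraries, so the constitutive subunits made up most of the transcripts in every library.

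**Figure D4:**
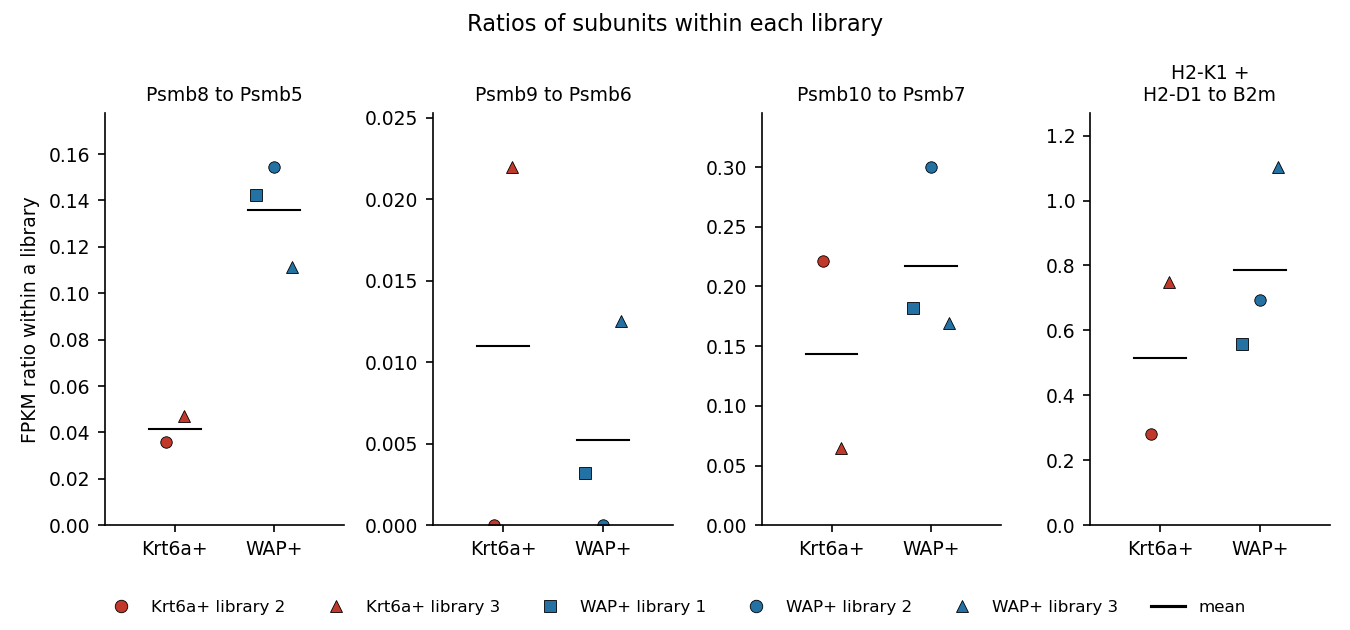
FPKM ratios within each library, on a linear axis from 0, with Krt6a+ libraries in red at the left and WAP+ libraries in blue at the right of each panel and a bar for the mean. The Psmb8 to Psmb5 ratio separates the populations, at up to 0.0472 in Krt6a+ libraries and from 0.111 in WAP+ libraries, and the other 3 ratios overlap.

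Psmb9 and Tap1 start 226 bases apart on opposite strands of chromosome 17, so a single interval lies before both starts, and their annotated exons overlap in GENCODE M21. Exons of Tap2, Tapbp, Psmb8 and Nlrc5 also overlap those of other genes on the opposite strand. The kit does not mark strand, so reads in such overlaps cannot be told apart. Tapbp exons also overlap those of Zbtb22 on the same strand. Krt6a+ library 3 had the highest value of each gene, 33.6 FPKM of Tap1 and 6.24 FPKM of Psmb9, while WAP+ library 3 had the next highest Psmb9, 4.07 FPKM, with the lowest Tap1, 0.173 FPKM. The shared window, chr17:34187306-34187605 on the strand of Tap1, and that of Psmb8, chr17:34197945-34198244 on the plus strand, are shown for comparison with those of the structural chains.
Tap1: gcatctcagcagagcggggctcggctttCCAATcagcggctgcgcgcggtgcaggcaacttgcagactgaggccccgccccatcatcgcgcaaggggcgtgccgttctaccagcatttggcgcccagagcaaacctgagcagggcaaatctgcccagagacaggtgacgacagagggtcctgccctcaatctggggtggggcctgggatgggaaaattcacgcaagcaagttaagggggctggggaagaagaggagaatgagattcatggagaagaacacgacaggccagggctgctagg
Psmb8: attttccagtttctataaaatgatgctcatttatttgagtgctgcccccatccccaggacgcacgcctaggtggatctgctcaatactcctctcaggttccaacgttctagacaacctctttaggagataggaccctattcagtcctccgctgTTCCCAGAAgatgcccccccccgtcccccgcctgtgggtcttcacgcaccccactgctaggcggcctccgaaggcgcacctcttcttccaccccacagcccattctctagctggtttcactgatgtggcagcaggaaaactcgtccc

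The shared window holds 1 CCAAT match, and that of Psmb8 holds 1 STAT element match, 97 bases before the start. Neither holds the interferon element core or the kappaB consensus in these letters, and the Psmb10 window holds none of the 4 motifs.

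Nlrc5, the class I transactivator, was listed at 0 and at 0.182 FPKM in Krt6a+ libraries, against 0, 0 and 0.622 FPKM in WAP+ libraries. It stayed under 1 FPKM in all 5 libraries and was not tested. Among 14 tested transcription factors linked to class I genes, the 3 with the largest moderated statistics, Irf1, Usf1 and Rela, had positive differences. Irf1, an interferon-induced activator of class I and immunoproteasome promoters, had 116 and 310 FPKM in Krt6a+ libraries, against 42.2, 12.0 and 7.92 FPKM in WAP+ libraries. Its groups did not overlap, and the log2 difference of 3.37 ± 0.65 (SE) missed the threshold (limma, adjusted p = 0.0607). Usf1, a helix-loop-helix factor, differed by 2.93 ± 0.73 (log2, SE) with an adjusted p of 0.103 by limma, and Rela, a subunit of NF-kB, had 59.8 and 93.6 FPKM in Krt6a+ libraries, against 40.0, 35.5 and 27.6 FPKM in WAP+ libraries (limma, log2 1.00 ± 0.39 SE, adjusted p = 0.245). Rfxap, a subunit of the RFX complex, had a large negative difference with a large error, -1.67 ± 1.08 (log2, SE). The median of the 14 was -0.04, with 7 positive and 7 negative and 0 past the threshold by limma. Irf1, Usf1 and Rela, 3 of the 14, had an unadjusted p under 0.05, against 17.1% of all tested genes. Usf1 would not have met the filter by its WAP+ libraries alone.

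Interferon signalling genes gave a mixed picture. Of 16 tested receptors and signalling genes 0 passed by limma, and 4 had an unadjusted p under 0.05, against 17.1% of all tested genes. These 4 were all negative, and Socs1 among them met the filter through WAP+ libraries only. Of the 16 differences 6 were positive and 10 negative, and the median log2 difference was -0.37. Stat2 and Irf9, which act together in the type I interferon response, had log2 differences of 0.77 ± 0.60 and 0.45 ± 0.54 (SE; limma, adjusted p = 0.560 and 0.724). Ptpn2, a phosphatase that restrains interferon signalling, had 9.53 and 15.8 FPKM in Krt6a+ libraries, against 40.6, 34.5 and 51.0 FPKM in WAP+ libraries (limma, log2 -1.79 ± 0.46 SE, adjusted p = 0.111). Il10rb, a receptor chain shared by interferon lambda, had -1.75 ± 0.59, and Socs1, a feedback inhibitor of JAK kinases, -2.70 ± 1.02 (SE; limma, adjusted p = 0.186 and 0.230).

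Of 20 tested interferon-induced genes, among 42 listed, 1 passed the threshold, with lower levels in Krt6a+ libraries, against 0.692% of all tested genes. Ifitm2, a membrane protein that restricts virus entry, had 85.8 and 97.9 FPKM in Krt6a+ libraries, against 477, 494 and 275 FPKM in WAP+ libraries, a log2 change of -2.24 ± 0.37 (SE) with an adjusted p of 0.0478 by limma. Without WAP+ library 1, 2 or 3, or with quantile normalization, no gene of this list passed. Isg15, a ubiquitin-like modifier, had 0.946 and 0 FPKM in Krt6a+ libraries, against 9.33, 12.2 and 9.62 FPKM in WAP+ libraries (limma, log2 -3.06 ± 0.66 SE, adjusted p = 0.0783), and Rtp4, an interferon-induced inhibitor of virus replication, -2.43 ± 0.65 (SE; limma, adjusted p = 0.122). Isg20, an exonuclease, ran the other way, with 129 and 126 FPKM in Krt6a+ libraries, against 62.2, 24.1 and 2.91 FPKM in WAP+ libraries (limma, log2 2.70 ± 0.96 SE, adjusted p = 0.201). The median of the 20 was -0.18, with 8 positive and 12 negative. An unadjusted p under 0.05 was met by 1 positive and 5 negative genes, against 17.1% of all tested genes in either direction. Of the negative ones, Isg15, Rtp4 and Irf7 reached 1 FPKM in WAP+ libraries only. They entered the test through the population where they were high, so the counts of directions are not free of the filter. Of the 42, 11 stayed under 1 FPKM in every library, and Cxcl10, Cxcl11 and Mx1 were listed at 0 throughout.

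**Figure D5:**
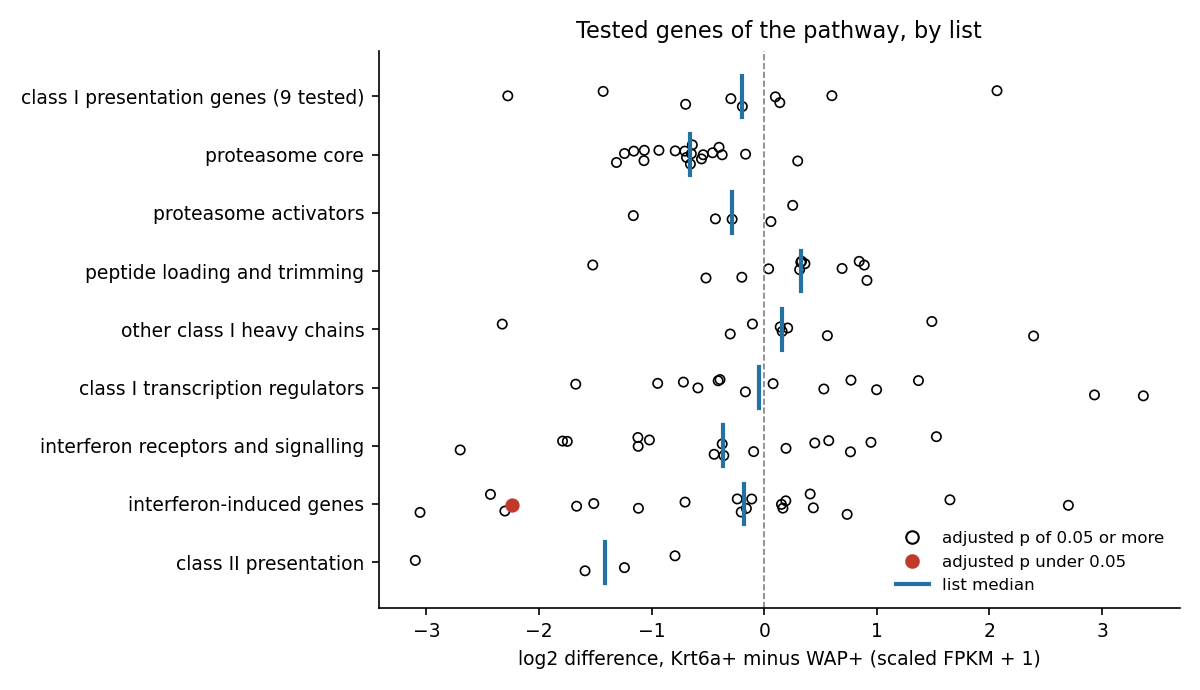
Log2 difference, Krt6a+ minus WAP+, of each tested gene in the lists around class I presentation, as open circles, with a blue bar for the list median and a filled red circle for the gene with an adjusted p under 0.05. Only Ifitm2 is filled, 18 of 19 genes of the proteasome core lie below 0, and so do all 4 class II genes. Of these 4, Cd74, H2-DMa and H2-Oa were at 0 in both Krt6a+ libraries and were tested through WAP+ values only.

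Among 12 tested chaperones and peptidases of the loading pathway, 9 differences were positive and 3 negative, with a median of 0.33 on the log2 scale. By limma 0 passed, and 0 had an unadjusted p under 0.05, against 17.1% of all tested genes. Calr, the lectin chaperone of the loading complex, had 178 and 279 FPKM in Krt6a+ libraries, against 208, 125 and 170 FPKM in WAP+ libraries, and Erap1, the peptidase that trims peptides in the endoplasmic reticulum, had 1.14 and 4.77 FPKM against 1.02, 5.67 and 0.270 FPKM. Both overlapped between the populations. The genes with the largest statistics were Thop1, a cytosolic peptidase (log2 -1.52 ± 0.81 SE), Hspa5, the general chaperone of the endoplasmic reticulum (0.84 ± 0.51 SE), and Tpp2, another cytosolic peptidase (0.89 ± 0.63 SE).

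Of 28 other class I heavy chain genes in the tables, 11 were listed at 0 in all libraries and 14 stayed under 1 FPKM in all. Tested were 9, of which 0 passed by limma. An unadjusted p under 0.05 was met by 2, Cd1d1 and H2-M9, against 17.1% of all tested genes. Cd1d1 met the filter through WAP+ libraries only, and H2-M9 would not have met it by its WAP+ libraries alone. Each thus entered the test through the population where it was high. The median log2 difference of the 9 was 0.16, with 6 positive and 3 negative. H2-T10, a non-classical heavy chain, was the steadiest, at 7.05 and 8.14 FPKM in Krt6a+ libraries, against 5.78, 6.38 and 5.56 FPKM in WAP+ libraries. Cd1d1, which presents lipids to NKT cells, was listed at 0 in both Krt6a+ libraries and had 5.01, 2.62 and 4.39 FPKM in WAP+ libraries (limma, adjusted p = 0.118). H2-M9 had 6.11 and 9.72 FPKM in Krt6a+ libraries, against 3.44, 0 and 0 FPKM in WAP+ libraries, and H2-Q4 4.68 and 7.35 FPKM against 0.520, 0.650 and 3.66 FPKM (limma, adjusted p = 0.189 and 0.375).

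Of 13 genes of class II presentation, 5 were listed at 0 in every library, among them H2-Aa and Ctss, and H2-Ab1 was above 0 in WAP+ library 3 only, at 1.76 FPKM. The 4 tested genes had negative differences, 0 passed by limma, and 1, Ifi30, had an unadjusted p under 0.05, against 17.1% of all tested genes. Cd74, H2-DMa and H2-Oa were at 0 in both Krt6a+ libraries and met the filter through WAP+ libraries only. Their negative direction was therefore set by the filter and is not a result about class II. Ifi30, a lysosomal thiol reductase of antigen processing, had 1.74 and 31.7 FPKM in Krt6a+ libraries, against 132, 72.3 and 41.6 FPKM in WAP+ libraries (limma, log2 -3.10 ± 0.92 SE, adjusted p = 0.148). Cd74, the class II invariant chain, was listed at 0 in both Krt6a+ libraries and had 0.744, 1.40 and 4.81 FPKM in WAP+ libraries. H2-DMa, a chain of the class II peptide exchange factor, was listed at 0 in both Krt6a+ libraries as well, against 3.02, 0 and 2.29 FPKM in WAP+ libraries. Among surface ligands that immune cells read, 7 of 14 were listed at 0 throughout and 5 were tested, with 0 past the threshold by limma and 1 at an unadjusted p under 0.05. That gene, Cd47, which restrains phagocytosis, had 21.0 and 28.4 FPKM in Krt6a+ libraries, against 55.4, 44.6 and 54.6 FPKM in WAP+ libraries (limma, log2 -1.16 ± 0.40 SE, adjusted p = 0.191), and Cd274, the PD-1 ligand, was above 0 in WAP+ library 1 only, at 1.18 FPKM. Pvrl2, a nectin that NK cell receptors bind, and Icam1, an adhesion molecule for leukocytes, had log2 differences of 1.16 ± 0.67 and 0.91 ± 0.60 (SE; limma, adjusted p = 0.424 and 0.478).

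Epithelial markers were abundant in every library, with summed scaled levels of 4666 and 6903 in Krt6a+ libraries and 9638 to 11030 in WAP+ libraries. Krt5, a basal keratin, was the 1 marker of 10 that passed, at 434 and 374 FPKM in Krt6a+ libraries and 22.4, 13.4 and 34.7 FPKM in WAP+ libraries (limma, log2 4.02 ± 0.49 SE, adjusted p = 0.0275). Without WAP+ library 1, 2 or 3, no marker of the 10 passed. Krt18, a luminal keratin, had 353 and 1283 FPKM in Krt6a+ libraries, against 4018, 3335 and 3534 FPKM in WAP+ libraries (limma, log2 -2.54 ± 0.50 SE, adjusted p = 0.0607). Krt19, another luminal keratin, had 412 and 803 FPKM in Krt6a+ libraries, against 1860.4, 1463 and 1206 FPKM in WAP+ libraries (limma, log2 -1.49 ± 0.36 SE, adjusted p = 0.102). Both Krt6a+ libraries had more Krt5 and less Krt18 and Krt19 than any WAP+ library, and the part of these markers in the Psmb8 and Psmb10 differences was not tested. Of 1 tested adipocyte and 4 tested fibroblast markers 0 passed by limma. Fabp4 alone had an unadjusted p under 0.05, against 17.1% of all tested genes, and it met the filter through WAP+ libraries only. Fabp4, which adipocytes and capillary endothelium express, was listed at 0 in both Krt6a+ libraries and had 2188, 65.8 and 20.3 FPKM in WAP+ libraries, while the other 6 adipocyte markers were listed at 0 throughout. The 8 fibroblast markers summed to 58.7 and 186 in Krt6a+ libraries and to 9.46 to 99.6 in WAP+ libraries, most of it Dcn, a matrix proteoglycan. The collagen genes Col1a1 and Col3a1 of that list had log2 differences of 0.28 ± 0.83 and -0.32 ± 1.01 (SE).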

How the data were processed

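Krt6a+ and WAP+ pools were profiled by SMART-Seq v4 amplification and Nextera libraries with paired reads, per the labels' protocols. The submitters' processing notes name TopHat, Cufflinks and build mm10; no version is recorded there. Each of 5 deposited tables holds 34535 RefSeq transcripts with an FPKM and its lower and upper 95% bounds, scaled by the authors to transcript length and mapped fragments, per the file headers. The deposited coverage signal, depth per base, was multiplied by transcript length and summed to describe libraries. The sums were 290000000 to 385000000 bases of depth. Locus starts in the tables count from 0 and were raised by 1. No count model was run.

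FPKM was summed by symbol and divided by a median-ratio factor from the 5334 genes at 1 or more in every library (0.873 to 1.14). The filter kept genes with FPKM of at least 1 in 2 or more libraries, 9682 in all, and values were taken as log2(scaled FPKM + 1). The pseudocount makes the fold of a low gene too small. Testing used limma 3.58.1 under R 4.3.3, two-sided, with a mean-variance trend and no covariate, adjusted by Benjamini-Hochberg. SD is over libraries, and SE and 95% intervals are moderated. The procedure was tested on simulated libraries, where it recovered very large changes and missed most moderate ones, so a gene that did not pass is not shown to be equal. No set test was run, and lists are given by counts and medians. Counts of a list are to be read beside the shares of all tested genes. These were 0.692% past the threshold and 17.1% at an unadjusted p under 0.05 (limma).

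The genes and lists were chosen with earlier results of these data known. Named were the 10 genes, Krt6a and Wap, the constitutive catalytic subunits, Stat2, Irf1, Irf9 and Ptprc, up to 3 tested genes per list with the largest moderated statistic, and genes past the threshold; 1 further gene of this rule is not reported here. Further list genes (such as Calr, Erap1, H2-T10, Cd274, Psme2, Isg20 and Rfxap) were named after their values were seen. Alternatives were other pseudocounts, filters, scalings and row choices, no trend, a replicate block and leaving out each library.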

Additional observations from a re-analysis of the deposited data

How the results depend on the processing

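In all 15 alternatives 0 of the tested class I presentation genes passed the threshold, as in the main analysis. Of 133 values of single genes under them, 122 kept their direction and 11 turned. H2-K1, Tap1, Psmb8 and Psmb10 kept theirs throughout. With quantile normalization and with scaling to the summed FPKM, H2-D1 had 0.61 and 0.49, B2m 1.18 and 0.99, and H2-K1 -0.36 and -0.31. Leaving out 1 library at a time gave log2 differences from -0.88 to -0.51 for H2-K1, -0.038 to 0.24 for H2-D1, -0.16 to 1.38 for B2m, -1.39 to 0.80 for Tap2, -0.43 to 0.060 for Tapbp and -1.20 to 1.495 for Psmb9. With scaling to the summed FPKM, Tapbp turned to 0.19 and Tap2 to 0.030, the median of the class I genes was 0.19 and that of all genes 0.27, a shift of 0.28 from the main analysis. With a pseudocount of 0.1, Psmb9 turned to -0.19. With a stricter filter Tap1 and Psmb9 were not tested, and with no filter Nlrc5 had -0.15. Within-library ratio differences, Krt6a+ minus WAP+, ran from -0.00524 (without Krt6a+ library 3) to 0.0168 for Psmb9 to Psmb6, from -0.503 to -0.0362 for H2-K1 and H2-D1 to B2m, and from -0.152 to 0.00419 (without Krt6a+ library 3) for Psmb10 to Psmb7. The cause was not tested.

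Counts of all genes called, 25 higher and 42 lower, were 6 and 20 with a pseudocount of 0.1, 41 higher with a pseudocount of 5, 2 and 3 with no filter, 71 and 92 with the stricter filter, 27 lower with unscaled FPKM, 39 higher with quantile normalization, 71 higher with scaling to the summed FPKM, and 7 and 9 with no trend. Without 1 library they ran from 2 to 44 higher and from 3 to 103 lower. Leaving out 1 library gave 0 to 1 calls among interferon-induced genes (0 with quantile normalization), 0 to 1 among class II genes and 0 to 3 among epithelial markers.

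The populations share the replicate numbers 2 and 3, and differences between these libraries correlated at 0.03 across 9682 genes. Such a correlation, from a single difference per population, cannot show whether libraries of the same number share an animal or a batch. A replicate block gave 15 higher and 19 lower genes and 0 class I genes. Depth limits Psmb9, Nlrc5 and the low transcripts, and 2 against 3 libraries limits every test.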
